A study of Mus musculus with 12 samples.

Results

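Lysosomes are the acidic compartments in which cells break down glycans, proteins, lipids and glycosaminoglycans taken in from outside or delivered by autophagy. Their hydrolases are made in the endoplasmic reticulum, tagged with mannose 6-phosphate and sorted to the lysosome, whose membrane carries LAMP glycoproteins, a proton pump and export channels. Growing oocytes build up a store of maternal mRNA, stop transcription when fully grown, and then translate and degrade that store as meiosis resumes. ZAR1 and ZAR2 are RNA-binding proteins of the oocyte, and the table lists the gene for ZAR2 under the symbol Zar1l.

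The genes described here are 38 genes of lysosomal enzymes and membrane proteins, 38 of the 23230 genes in the deposited expression table. The list was selected on the MII values of Manba, the gene of beta-mannosidase, which had been seen much lower in Zar1/2-null than in WT MII oocytes, and the question was whether other lysosomal genes followed it. It holds 10 proteases, 13 glycosidases, 5 sulfatases, 6 lipid-handling genes and 4 membrane genes. Values are FPKM (fragments scaled to transcript length and to mapped reads) multiplied by a factor from ERCC spike-in RNA, which the authors added to every lysate. A level thus stands for RNA per 10 oocytes and not per unit of oocyte RNA. Its scale is set by the WT growing library of the same replicate number. Because FPKM is divided by transcript length, levels of different genes can be set side by side.

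The 12 libraries form 6 groups of 2: wild-type (WT) and Zar1/2-null oocytes at the growing, GV and MII stages. All mice were of a C57BL6/ICR hybrid strain. The null females carried CRISPR deletions in both genes, a frameshift in Zar2 and a small deletion followed by a stop codon in Zar1. The deletions are constitutive, present in every cell and not only in the oocyte. Growing oocytes came from females of 13.5 days by the labels (the study's methods give another age), fully grown germinal vesicle (GV) oocytes from females of 21 days at 44 h after PMSG, and MII oocytes at 16 h after hCG, for which the labels give no age. MII is the label of both genotypes at that time. The study reports, however, that ovulated null oocytes were arrested at metaphase or telophase of meiosis I. In these libraries genotype and meiotic stage therefore cannot be told apart in comparisons with null MII oocytes. The study addressed the point separately, in WT oocytes held in meiosis I with nocodazole. By RT-qPCR of selected mRNAs it reports that their degradation was unaffected. Each library was made from 10 pooled oocytes by Smart-seq2. Nothing states that the 2 libraries of a group came from different females, so that p-values measure only the spread between these libraries, which may be technical.

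The targeted genes and the cell identity were checked first. Zar1l was at 639 and 644 FPKM in WT growing oocytes and at 17.5 and 13.2 FPKM in null ones, and at 533 and 504 against 20.9 and 19.6 FPKM at GV. Zar1 transcripts, whose deletion need not remove the mRNA, were still listed at 407 and 460 FPKM in null growing oocytes. All 12 oocyte markers reached 1 FPKM in every group except WT MII, where 11 did. Of 14 macrophage and leukocyte markers, at most 2 reached 1 FPKM in any group, but their summed level moved with genotype, from 21.8 to 24.6 FPKM in WT growing libraries against 1.01 to 2.197 in null ones and from 12.3 to 12.8 against 2.55 to 3.096 FPKM at GV. The highest marker among them was C1qb, at up to 23.7 FPKM in a WT and 1.77 FPKM in a null growing library. The 18 granulosa and cumulus markers summed to between 30.9 and 35.4 FPKM in WT and between 16.7 and 24.8 FPKM in null growing libraries, with Cyp19a1 or Nr5a2 the highest, and of the 12 stromal and endothelial markers only Pecam1 reached 1 FPKM. The part of other cells in the results that follow was not tested, and in pooled cells fewer cells of a type and less RNA per cell cannot be told apart.

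Of the 38 genes, 29 reached 1 FPKM in at least 1 library and entered the tests with 11502 genes in all. The other 9 were Ctsc, Ctsf, Ctss, Ctsz, Gusb, Lipa, Sgsh, Arsa and Aga, and none of them exceeded 0.703 FPKM in any library. They include the cathepsins best known from immune cells, Ctss and Ctsc, and the lysosomal acid lipase gene Lipa. Exons of 7 of the 29 genes overlap exons of another gene in the mm9 annotation, and the libraries hold no strand information. At the growing and GV stages the partner was the more abundant one for Ctsb, whose last exons face those of Fdft1 (up to 769 shared bases in 1 exon, with Fdft1 at 389.8 FPKM in WT growing oocytes), and in null growing oocytes for Npc1, at 11.9 FPKM beside 15.7 FPKM for 3110002H16Rik. The partner of Arsb, Gm17447, which shares up to 1719 bases of an exon with it on the other strand, has no value here. The annotation also lists a shorter gene under the symbol Glb1 at the start of Glb1 (mm9, chr9:114310223-114316394).

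The most abundant of these transcripts in WT GV oocytes were Lamp1, the major glycoprotein of the lysosomal membrane, at 109 ± 19.9 FPKM (SD, n = 2), and Ctsh, a cysteine protease, at 101 ± 23.2 FPKM. Manba followed at 30.2 ± 8.78 FPKM, Npc2, which hands cholesterol to NPC1 for export, at 24.4 ± 4.71 FPKM, and Smpd1, the acid sphingomyelinase gene, at 21.0 ± 3.61 FPKM. Lamp1 and Ctsh did not differ beyond their spread, and neither did Manba and Npc2 or Npc2 and Smpd1 as neighbours in this order. Most of the list was scarce: the genes of the sulfatases Arsb, Ids and Galns were at 3.05, 1.48 and 1.66 FPKM. The heat map of all 29 genes shows 3 stage blocks, with the WT MII columns the darkest.

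**Figure D1:**
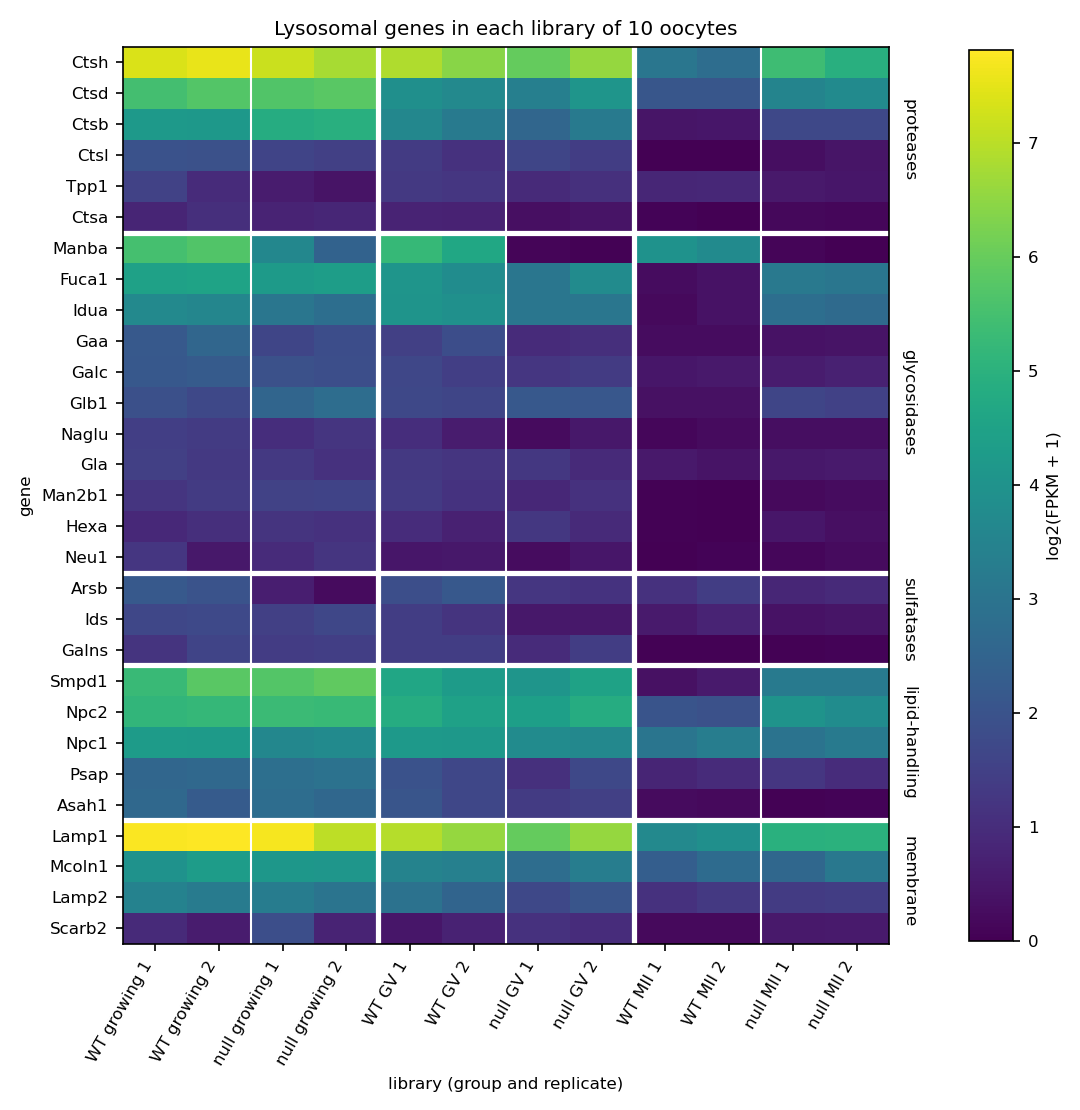
Level of the 29 kept lysosomal genes (rows, by role) in each of the 12 libraries (columns, 10 oocytes each), as log2(FPKM + 1). Lamp1 and Ctsh are the brightest rows, Manba darkens in the null columns at every stage, and Smpd1, Idua and Fuca1 are darker in WT MII than in null MII.

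Many lysosomal genes carry the E-box CACGTG, the core of the element bound by TFEB and its relatives, near their start. In RefSeq promoters (GRCm38.p6, 250 bases before to 50 after the start), which were found for 32 of the 38 genes, CACGTG occurred in 12 (37.5%), against 7.15% of 32851 promoters of the same length. The longer palindrome TCACGTGA, which contains it, occurred in Ctsa, Ctsd, Mcoln1 and Gla (12.5%), against 0.974% of all promoters. A lysosomal gene was counted if any of its promoters held the motif, whereas the background was counted per promoter. These shares are therefore not like measures, and the difference favours genes with several promoters, here Ctsa and Psap. Both motifs read the same on either strand. Shown here are 30-base windows from genes on which the results turn, with CACGTG in capitals. They come from Lamp1 (chr8:13159088-13159117, plus strand), the most abundant gene, Ctsd (chr7:142387908-142387937, minus strand), which fell most during growth, and Glb1 (chr9:114401018-114401047, plus strand), which was higher in null oocytes. The last is a window just before the start of Manba (chr3:135485581-135485610, plus strand), whose promoter sequence holds no such match.
Lamp1: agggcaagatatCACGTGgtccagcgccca
Ctsd: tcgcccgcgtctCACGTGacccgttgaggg
Glb1: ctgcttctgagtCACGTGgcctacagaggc
Manba: ctgacctgggggcgggtccgtgctcggggc
Such a match is a description of the letters. The promoters of Idua, Arsb, Smpd1 and Fuca1 held no CACGTG in these windows either.

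The 3′ ends were searched as well, for TTTTAT or TTTTAAT in the last 100 bases of the transcript, the elements through which maternal mRNAs are polyadenylated. On the transcript strand 4 of 28 kept genes with a usable transcript held one (14.3%), namely Arsb, Ctsa, Gaa and Galc, against 20.0% of 9779 genes. The Manba transcript, with a 3′ UTR of 965 bases, held none.

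Manba (mm9, chr3:135148575-135234368, plus strand) encodes beta-mannosidase, which removes the last beta-linked mannose during glycoprotein breakdown. In growing oocytes it was at 44.9 and 50.5 FPKM in WT and at 11.2 and 4.51 FPKM in null libraries. At GV it was at 36.4 and 23.9 FPKM in WT and at 0.0668 and 0.0305 FPKM in null libraries, and at MII at 14.8 and 12.3 against 0.0880 and 0.0212 FPKM. The genotypes did not overlap at any stage, and the null GV and MII values lay under 0.1 FPKM while the null growing values did not. The MII values are those for which the list was selected and are given as a description.

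The difference at the 2 earlier stages, whose values the selection did not use, was tested for every kept gene by limma, fitted to log2(FPKM + 1), with Benjamini-Hochberg adjustment. The log2 fold change of Manba was -2.57 (SE 0.306, limma adjusted p = 0.000125) at the growing stage and -4.86 (SE 0.306, adjusted p = 5.32e-06) at GV. The MII libraries entered this fit through the shared estimate of the spread, and with only the libraries compared the adjusted p by limma was 0.0127 at the growing stage and 0.000475 at GV. The GV value is bounded by the pseudocount of 1 FPKM, and it was -7.65 with a pseudocount of 0.1. The GV effect minus the growing effect was -2.30 on the log2 scale (limma interaction, SE 0.433, adjusted p = 0.00814), a call that held without each library in turn but ended without the filter on low genes (adjusted p = 0.0537). Without the spike-in scaling Manba was still lower, by log2 values of -2.32 and -5.19.

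The genes around Manba were read as well, a choice made after its values were seen. Of 10 genes of the table within 500 kb, 9 were kept, and at the growing stage 2 were higher and 2 lower in null oocytes, where 10.6% and 24.4% of all genes were. At GV 2 were higher (Nfkb1 and Nhedc2) and 1 lower (Cenpe), where 2.83% and 40.6% of all genes were. In growing oocytes Nfkb1, 13.3 kb away on the other strand, rose from 1.46 to 4.08 FPKM (log2 1.04, limma adjusted p = 0.000862). Nhedc2, a sodium-proton exchanger gene 143 kb away, rose there from 1.40 to 12.4 FPKM (log2 2.49, limma adjusted p = 7.3e-06). Cenpe and Bank1 fell at the growing stage, by 0.57 and 0.70 on the log2 scale (limma adjusted p = 0.0110 and 0.0258). At GV the log2 values were 0.60 for Nfkb1, 1.45 for Nhedc2 and -0.40 for Cenpe (limma adjusted p = 0.0143, 0.00022 and 0.0455). Bank1 was not called at GV (-0.20, limma adjusted p = 0.458). The nearest gene on the other side, Ube2d3, was at 1326 FPKM in WT and 1231 FPKM in null growing oocytes (limma adjusted p = 0.725).

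**Figure D2:**
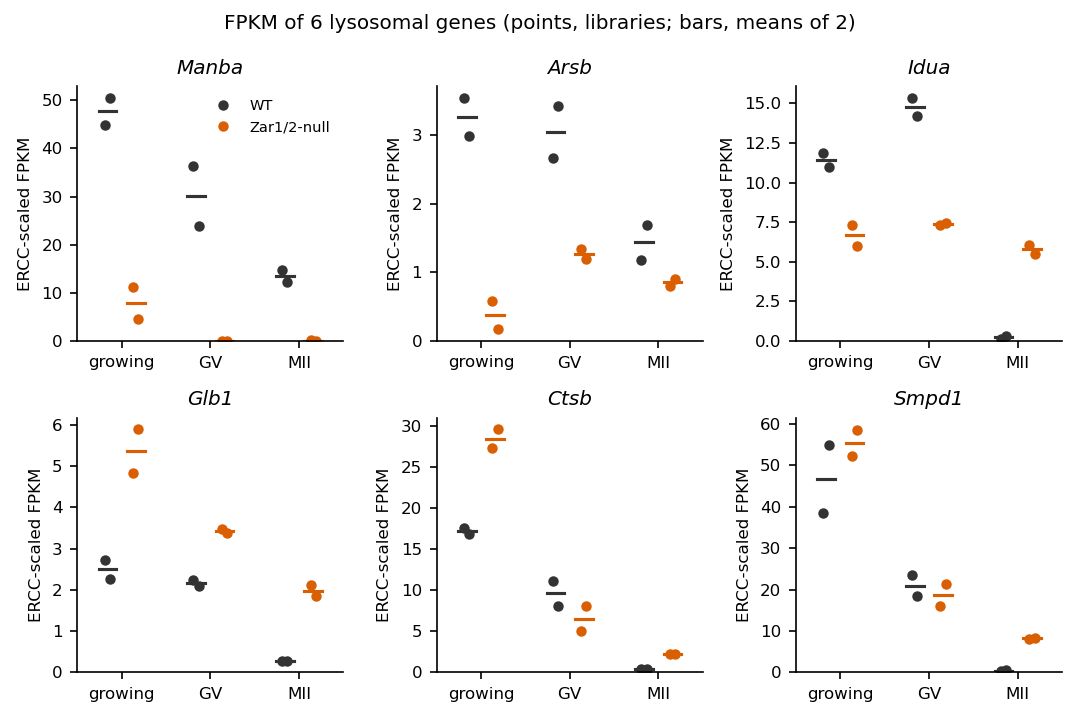
ERCC-scaled FPKM of Manba, Arsb, Idua, Glb1, Ctsb and Smpd1 at each stage (points, single libraries of 10 oocytes; short bars, means of 2; grey, WT; orange, Zar1/2-null). Manba is lower in null oocytes throughout, Arsb and Idua are lower at the growing and GV stages, Glb1 is higher at every stage, and at MII the Idua and Smpd1 points of null oocytes lie above those of WT.

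Among growing oocytes, most other lysosomal genes did not follow Manba. Of 29 genes tested, 7 were lower and 2 higher in null oocytes and 20 did not pass the test. The 7, and the share made from them, include Manba itself. The lower share (24.1%) was close to that of all genes, of which 24.4% were lower, and 10.6% of all genes were higher against 6.90% of these. The median log2 fold change was -0.12 for the lysosomal genes and -0.16 for all genes tested. Besides Manba the genes that fell were Arsb, Tpp1, Idua, Gaa, Npc1 and Ctsl, and those that rose were Glb1 and Ctsb.

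Arsb (mm9, chr13:94541634-94712971, plus strand) encodes arylsulfatase B, which removes sulfate from dermatan and chondroitin sulfate. It was at 3.55 and 2.996 FPKM in WT growing oocytes and at 0.581 and 0.178 FPKM in null ones, a log2 fold change of -1.64 (SE 0.173, limma adjusted p = 5.94e-05). Tpp1, the gene of a tripeptidyl peptidase, was at 1.89 and 0.940 FPKM in WT and at 0.507 and 0.324 FPKM in null libraries (log2 -0.75, SE 0.171, adjusted p = 0.00625). Both are low, so that the pseudocount shrinks their change, and the null libraries lay under both WT libraries in each.

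Idua and Gaa act on a glycosaminoglycan and on glycogen. Idua (mm9, chr5:109089350-109113576, plus strand), the alpha-L-iduronidase gene on the same chromosome as Zar1 and Zar1l, was at 11.9 and 10.99 FPKM in WT and at 7.31 and 6.03 FPKM in null growing oocytes (log2 -0.70, SE 0.137, limma adjusted p = 0.00265). Gaa, the acid alpha-glucosidase gene, was at 3.52 and 4.999 FPKM against 2.08 and 2.56 FPKM (log2 -0.65, SE 0.166, adjusted p = 0.0109). Npc1, the cholesterol export transporter gene, fell from a mean of 18.4 to 11.9 FPKM (log2 -0.59, adjusted p = 0.00974) and Ctsl, a cysteine protease gene, from 2.86 to 1.90 FPKM (log2 -0.41, adjusted p = 0.0335).

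Glb1 (mm9, chr9:114310194-114383495, plus strand), the beta-galactosidase gene, went the other way, with 2.73 and 2.26 FPKM in WT and 4.83 and 5.89 FPKM in null growing oocytes (log2 0.86, SE 0.132, limma adjusted p = 0.000608). Ctsb (mm9, chr14:63741302-63764758, plus strand), a cysteine protease gene, was at 17.5 and 16.9 FPKM in WT and at 27.3 and 29.5 FPKM in null libraries (log2 0.69, SE 0.195, adjusted p = 0.0182). In both genes the null libraries lay above the WT ones. Fdft1, which shares exon bases with Ctsb, had means of 389.8 FPKM in WT and 372 FPKM in null growing oocytes.

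The scaling decides part of this count. Without the spike-in factors 3 lysosomal genes were lower (Manba, Arsb and Tpp1) and 3 higher, or 10.3% each. Of all genes 12.3% were lower and 14.9% higher then. The share of all called genes that were higher moved from 30.4% to 54.8%. Of the 9 calls 3, those of Manba, Arsb and Glb1, held under every alternative. Calls were lost on leaving out 1 library for Ctsb (log2 0.72, 0.67 and 0.64 without WT growing 1, WT growing 2 and null growing 2), Gaa (-0.45 without WT growing 2 and -0.55 without null growing 1) and Npc1 (-0.58 without WT growing 1 and -0.53 without null growing 1). The Ctsl call was lost without either WT growing library (-0.39 and -0.44), without null growing 2 (-0.35) and, narrowly, without either WT MII library (limma adjusted p = 0.05099 and 0.05093).

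**Figure D3:**
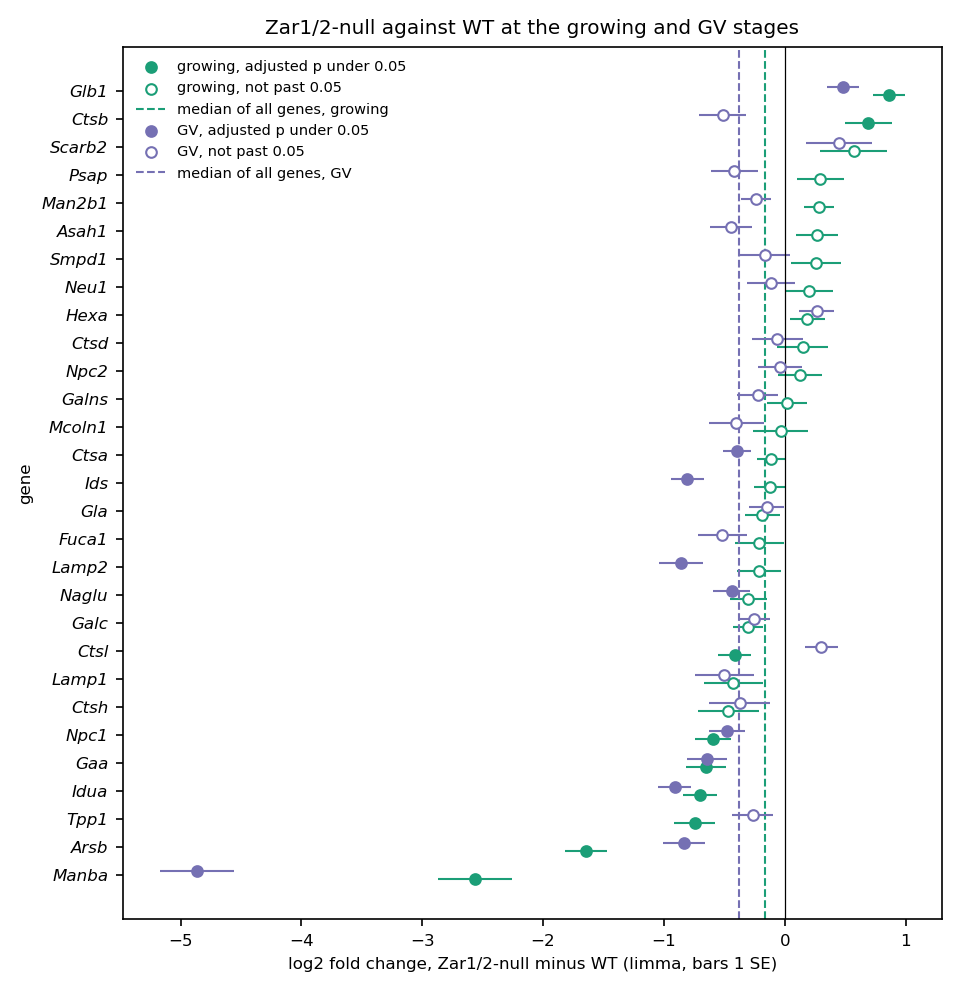
Log2 fold change of null against WT oocytes for the 29 lysosomal genes at the growing (green) and GV (purple) stages, with bars of 1 SE from limma and filled points for adjusted p under 0.05; dashed lines give the median of all 11502 genes. Most genes scatter around those medians of -0.16 and -0.38, and Manba lies far to the left at both stages.

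At GV 9 of the 29 genes, Manba itself included, were lower in null oocytes, 1 was higher and 19 did not pass the test. Of all genes, 40.6% were lower and 2.83% higher, against 31.0% and 3.45% of the lysosomal genes, and the medians were -0.39 and -0.38 on the log2 scale. The lower genes were Manba, Idua, Lamp2, Arsb, Ids, Gaa, Npc1, Naglu and Ctsa. Idua, Ids and Naglu are needed in the breakdown of heparan sulfate, and Arsb acts on dermatan sulfate.

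Idua was at 15.3 and 14.2 FPKM in WT GV oocytes and at 7.34 and 7.42 FPKM in null ones (log2 -0.91, SE 0.137, limma adjusted p = 0.000494). Ids, the iduronate 2-sulfatase gene, was at 1.70 and 1.26 FPKM against 0.408 and 0.422 FPKM (log2 -0.81, SE 0.136, adjusted p = 0.000931). Arsb was at 2.67 and 3.43 FPKM against 1.35 and 1.19 FPKM (log2 -0.83, SE 0.173, adjusted p = 0.00317). In these 3 genes the null libraries lay close together and under both WT libraries.

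Lamp2, whose products are a LAMP glycoprotein and a receptor of selective autophagy, was at 6.72 and 4.72 FPKM in WT and at 2.24 and 3.14 FPKM in null GV oocytes (log2 -0.86, SE 0.183, limma adjusted p = 0.00359). Gaa was at 1.78 and 2.59 FPKM against 0.951 and 1.09 FPKM (log2 -0.64, SE 0.166, adjusted p = 0.00988). Glb1 was again higher, with 2.23 and 2.098 FPKM in WT and 3.47 and 3.38 FPKM in null libraries (log2 0.48, SE 0.132, adjusted p = 0.0130). Smaller falls were called for Npc1 (means of 17.2 and 12.1 FPKM), Naglu (0.776 and 0.302 FPKM) and Ctsa (0.685 and 0.283 FPKM), with limma adjusted p of 0.0233, 0.0396 and 0.0191.

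At this stage the factors weigh more, since null GV libraries had been multiplied by 0.533 and 0.583 and WT GV libraries by 0.836 and 0.697. Without them 2 genes were lower (Manba and Ids) and 2 higher (Glb1 and Ctsl), or 6.90% each, where 13.5% and 7.19% of all genes were. The median of all genes was then -0.03, and the higher share of all calls moved from 6.51% to 34.7%. Set against the median of all genes (-0.38), the log2 changes of Npc1, Naglu and Ctsa (-0.48, -0.44 and -0.39) lay within 1 SE of it (0.148, 0.155 and 0.117). Only the calls of Manba and Ids held under every alternative. Calls were lost on leaving out 1 library for Ctsa (-0.38 without WT GV 1, -0.36 without null GV 1), Gaa (-0.46 without WT GV 2, -0.60 without null GV 1) and Npc1 (-0.46 without WT GV 1, -0.49 without WT GV 2, -0.41 without null GV 2). Naglu lost its call without WT GV 1 (-0.23), without null GV 1 (-0.31) and without each of the 4 MII libraries (limma adjusted p between 0.0575 and 0.0598).

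Whether the genotype effect changed between the growing and GV stages was tested as an interaction, in which 2 lysosomal genes were higher (6.90%, against 2.58% of all genes) and 3 lower (10.3%, against 11.3%). Besides Manba the lower ones were Ctsb, which was higher in null growing oocytes and at 11.1 and 8.11 FPKM in WT against 4.99 and 8.08 FPKM in null GV oocytes (difference of log2 effects -1.20, SE 0.276, limma adjusted p = 0.0190), and Ids (-0.68, SE 0.192, adjusted p = 0.0392). Ids had been at 2.15 and 2.29 FPKM in WT against 1.76 and 2.16 FPKM in null growing oocytes. The higher ones were Ctsl, at 1.54 and 1.16 FPKM in WT against 2.12 and 1.68 FPKM in null GV oocytes (0.72, SE 0.190, adjusted p = 0.0320), and Arsb, whose deficit was smaller at GV (0.81, SE 0.245, adjusted p = 0.0494). Of 12 fits that left out 1 library, 4 lost the call of Ctsb, 9 that of Ctsl, 10 that of Ids and 11 that of Arsb, with log2 values of -1.50 to -0.90, 0.60 to 0.84, -0.81 to -0.56 and 0.60 to 1.03.

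Between the growing and GV stages of WT oocytes 14 lysosomal genes fell and none rose in the limma test, where 28.7% of all genes fell and 2.77% rose. At an unadjusted p under 0.05 the fallers numbered 16 and 1 gene, Idua, was higher. The largest falls were those of Ctsd, the main aspartic protease of the lysosome, from 43.5 and 51.8 to 13.7 and 11.7 FPKM (log2 -1.83, SE 0.209, limma adjusted p = 0.0005), Smpd1 (-1.11, adjusted p = 0.00394), Lamp1 (-1.02, adjusted p = 0.0120) and Psap, the precursor of the saposins (-0.81, adjusted p = 0.0123). The median change was -0.58 for the lysosomal genes and -0.29 for all genes. Idua stood apart at 11.9 and 10.99 FPKM in growing and 15.3 and 14.2 FPKM in GV oocytes, without passing the test (log2 0.34, adjusted p = 0.0781). Without the spike-in scaling the medians were -0.27 for the lysosomal genes and 0.02 for all genes. Of all genes 3.23% fell and 3.66% rose then, while 1 lysosomal gene fell (Ctsd, log2 -1.46) and 1 was higher (Idua, 0.71, limma adjusted p = 0.0333). The count was 6 without WT growing 1, 6 without WT growing 2 and 5 without WT GV 2, and Ctsd, Smpd1, Ctsl and Galc kept their calls without each library.

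From GV to MII the WT level fell for 26 of the 28 lysosomal genes other than Manba and rose for none by limma (also 26 and 0 at an unadjusted p under 0.05). That is near the background, since 93.4% of all genes fell and 0.104% rose. The cDNA was primed with oligo-dT, so that loss of an mRNA and loss of its poly(A) tail cannot be told apart. The size of the fall varied widely. Smpd1 (mm9, chr7:112702874-112706902, plus strand) went from 23.5 and 18.4 to 0.288 and 0.494 FPKM (log2 -3.98, SE 0.204, limma adjusted p = 7.17e-09), and Ctsh from 118 and 84.9 to 7.37 and 5.96 FPKM (-3.73, SE 0.251, adjusted p = 6.96e-08). Idua went from 15.3 and 14.2 to 0.152 and 0.290 FPKM (-3.69, SE 0.137, adjusted p = 6.83e-10) and Fuca1 (mm9, chr4:135476650-135496226, plus strand), the alpha-L-fucosidase gene, from 15.9 and 12.8 to 0.189 and 0.299 FPKM (-3.62, SE 0.201, adjusted p = 1.37e-08). These 4 falls kept their direction and call under every scaling tried.

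Among smaller falls Npc1 went from 17.4 and 17.0 to 7.16 and 8.92 FPKM and Mcoln1, the gene of the lysosomal cation channel TRPML1, from 10.4 and 9.64 to 4.02 and 5.65 FPKM. Of 21 lysosomal genes other than Manba with means of at least 1 FPKM at GV in both genotypes, Tpp1 kept the largest share of its GV mean at MII in WT oocytes (58.0%), followed by Mcoln1 (48.3%), Arsb (47.1%) and Npc1 (46.7%), and Manba itself kept 44.9%. The smallest shares were those of Ctsl, listed at 0 in both WT MII libraries, Idua (1.495%), Galns (1.56%), Fuca1 (1.70%) and Smpd1 (1.86%). The median over the 21 genes was 12.1%, and over 8951 genes chosen the same way 19.1%. These percentages rest on the spike-in factors, since 1 deposited FPKM of a WT MII library stood for 4.45 or 4.39 FPKM before scaling. With each library scaled to its own median instead, 9 of the genes rose and 11 fell, where 41.7% and 31.8% of all genes did. Npc1 and Mcoln1 were among those that rose.

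In null oocytes 17 of the 28 genes fell from GV to MII and none rose by limma (also 17 and 0 at an unadjusted p under 0.05), where 68.7% of all genes fell and 0.209% rose. With each library scaled to its own median instead, 14 rose and 4 fell, where 38.4% and 27.4% of all genes did. With no scaling by spike-ins 4 rose and 4 fell, where 19.5% and 40.5% of all genes did. The 2 genes with the deepest falls in WT fell in null oocytes too, Smpd1 by 1.08 (limma adjusted p = 0.000585, 43.9% left) and Ctsh by 1.13 on the log2 scale (adjusted p = 0.00195, 44.8% left). The next 2 did not pass the test: Idua was at 7.34 and 7.42 FPKM at GV and 6.08 and 5.52 FPKM at MII (log2 -0.30, limma adjusted p = 0.0700), and Fuca1 at 7.44 and 12.5 FPKM and at 8.01 and 7.32 FPKM (-0.30, adjusted p = 0.199). Ctsd was at 9.27 and 15.7 FPKM at GV and at 10.6 and 12.3 FPKM at MII. The share of the GV mean left at MII was larger in null than in WT oocytes for 19 of the 21 genes (90.5%), and for 85.7% of all genes, the exceptions being Tpp1 and Asah1, the acid ceramidase gene. Its median was 44.8% for the 21 genes and 36.6% for all genes. These shares share their GV and MII libraries with the other comparisons. By the study the null oocytes labelled MII were arrested in meiosis I, so that the genotypes also differ in the stage reached.

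**Figure D4:**
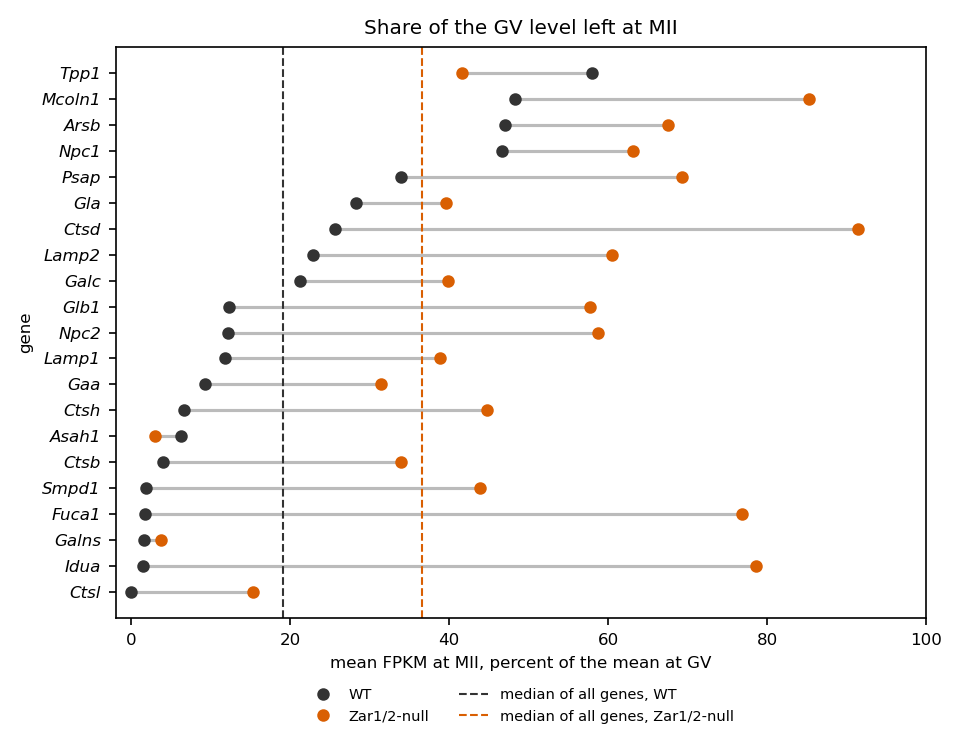
Mean FPKM at MII as a percentage of the mean at GV for 21 lysosomal genes in WT (grey) and Zar1/2-null (orange) oocytes, with dashed lines at the medians of 8951 genes (19.1% and 36.6%). Idua, Fuca1 and Smpd1 lie under 2% in WT and between 43.9% and 78.6% in null oocytes, whereas Galns and Asah1 are low in both.

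The MII oocytes of the 2 genotypes, from which the list was selected through Manba, are described without a test. By the study the null ones were arrested in meiosis I, so that the genotypes also differ in meiotic stage here. The 3-fold rule of the study was used, with means under 1 FPKM raised to 1. Null MII oocytes then held 6 of the 29 genes at over 3 times the WT level, as 7.49% of all genes were. Only 1 gene, Manba, lay over 3 times below it, as 1.32% of all genes did. The list was selected on that fall of Manba, so this gene's place in the lower counts was fixed in advance. The 6 were 2 cathepsin genes, Ctsd and Ctsh, 2 glycosidase genes, Idua and Fuca1, and the lipid-handling genes Smpd1 and Npc2. Both null libraries lay above both WT libraries for 21 genes (72.4%, against 43.5% of all genes) and below them for 5 (17.2%, against 27.8%). The 5 were Manba, placed there by the selection of the list, and Arsb, Ids, Tpp1 and Asah1. For Gla, Npc1 and Mcoln1 the genotypes overlapped.

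Ctsh was at 7.37 and 5.96 FPKM in WT MII and at 41.1 and 29.3 FPKM in null MII oocytes, Ctsd at 3.25 and 3.26 against 10.6 and 12.3 FPKM, and Npc2 at 3.06 and 2.85 against 15.1 and 12.8 FPKM. These give ratios of 5.28, 3.51 and 4.72 between the means. Smpd1 was at 0.288 and 0.494 FPKM in WT and at 8.04 and 8.38 FPKM in null MII oocytes, Fuca1 at 0.189 and 0.299 against 8.01 and 7.32 FPKM, and Idua at 0.152 and 0.290 against 6.08 and 5.52 FPKM. For these 3 genes the WT mean lay under the floor, so that the ratios of 8.21, 7.66 and 5.80 are set by it. Ctsl was listed at 0 in both WT MII libraries and at 0.216 and 0.365 FPKM in the null ones.

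No gene came near Manba, whose WT mean of 13.5 FPKM stood against 0.0546 FPKM in null MII oocytes. The next in that direction by the rule with its floor, Arsb, was at 1.17 and 1.70 FPKM in WT and at 0.807 and 0.905 FPKM in null libraries (ratio 0.696), well short of the 3-fold limit. With no floor the ratios of means were 0.300 for Asah1, 0.513 for Tpp1, 0.559 for Ids and 0.596 for Arsb, the first 3 of them with both means under 1 FPKM. Scaled without the spike-ins, 7 genes passed the rule upwards, with Ctsd (2.99) no longer among them and Ctsb (4.98) and Glb1 (6.29) added. With the spike-ins the floor had held Ctsb and Glb1 under the limit, since their ratios with no floor were 5.87 and 7.44. Among genes with both means under 1 FPKM, Hexa (13.1) and Man2b1 (6.12) had the largest upward ratios with no floor, Ctsl with its WT values of 0 aside. On that side, with the spike-ins and the floor, Ctsd at 3.51 stood just inside the limit and Lamp1, at 11.7 and 13.8 against 29.8 and 30.8 FPKM (ratio 2.37), just outside. For 14 of the 29 genes both means were under 1 FPKM, which the rule sets to no difference.

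Genes outside the list that act in the lysosome, in sorting to it or in its regulation, together with mannosidases of other compartments, were read from 6 further lists, of which 113 of 116 genes were in the table and 87 were tested. At the growing stage 5 were higher and 21 lower in null oocytes, where 10.6% and 24.4% of all genes were. At GV 2 were higher and 31 lower, where 2.83% and 40.6% of all genes were. Without the spike-in scaling 8 were higher and 7 lower at the growing stage, where 14.9% and 12.3% of all genes were. At GV 5 were higher and 7 lower without it, where 7.19% and 13.5% of all genes were. The counts of each list below are to be read beside these shares and are not by themselves results about a list.

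Among 17 subunits of the V-ATPase, the proton pump that acidifies lysosomes, 3 fell at the growing stage and 5 at GV and none rose by limma (at an unadjusted p under 0.05, 1 and 0 were higher). In unscaled values 2 fell at each stage. Atp6v1b2, a B subunit of the catalytic domain, was at 109 and 116 FPKM in WT growing oocytes and at 37.0 and 30.5 FPKM in null ones (log2 -1.71, SE 0.146, limma adjusted p = 1.58e-05). At GV it was at 56.0 and 56.3 against 13.7 and 15.6 FPKM (log2 -1.87, SE 0.146, adjusted p = 1.19e-05), and both falls held without the spike-in scaling (-1.43 and -1.45). Atp6v0b, a subunit of the membrane domain, fell from 71.4 ± 5.70 to 24.0 ± 5.04 FPKM at GV (SD, n = 2; log2 -1.55, limma adjusted p = 5.95e-05), and Atp6v0e fell from 234 to 143 FPKM.

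Of 16 other hydrolases and activators, 6 fell at each stage and none rose by limma (1 was higher at each stage at an unadjusted p under 0.05). Unscaled, 1 rose and 3 fell at the growing stage, and 3 rose and 2 fell at GV. Ppt1, the gene of palmitoyl-protein thioesterase, was at 14.5 and 13.3 against 7.28 and 6.90 FPKM in growing oocytes and at 12.6 and 7.39 against 2.25 and 3.54 FPKM at GV (log2 -0.88 and -1.48, limma adjusted p = 0.0101 and 0.000465). Sumf1 encodes the enzyme that activates every sulfatase and fell with log2 values of -0.81 and -1.22 (limma adjusted p = 0.00538 and 0.000428). Lgmn, the gene of the asparaginyl protease legumain, fell from 48.3 to 26.01 FPKM in growing oocytes and from 47.2 to 25.96 FPKM at GV.

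The 17 further membrane genes split, with 4 higher and 5 lower at the growing stage and 2 higher and 3 lower at GV. Without the spike-in scaling 4 rose and 0 fell at the growing stage, and 2 rose and 1 fell at GV. Ostm1, a partner of the lysosomal chloride exchanger, was at 3.20 and 2.94 against 7.89 and 9.15 FPKM in growing oocytes (log2 1.22, limma adjusted p = 4.45e-05), and Tmem192 at 6.18 and 6.16 against 13.2 and 14.1 FPKM (1.03, adjusted p = 0.000662). Both were higher at GV too, by 0.71 and 0.83 on the log2 scale. Cd68, a macrophage marker as well, rose from 0.727 to 3.04 FPKM in growing oocytes, against the direction of C1qb. Slc17a5, Cln3 and Lmbrd1 fell at the growing stage, and Lmbrd1, Cd164 and Mfsd8 at GV, with Cd164 going from 106 to 62.9 FPKM (log2 -0.74, limma adjusted p = 0.0023).

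Of 15 genes of mannose 6-phosphate sorting, 1 fell at the growing stage and 5 at GV and none rose by limma (1 and 0 were higher at an unadjusted p under 0.05). Without the spike-in scaling 2 rose and 0 fell at the growing stage, and none were called at GV. Gnptab, a subunit gene of the phosphotransferase that makes the tag, fell at both stages, from 4.26 to 1.98 FPKM in growing and from 3.56 to 1.53 FPKM in GV oocytes (log2 -0.83 and -0.85, limma adjusted p = 0.00216 and 0.0016), and neither call held without the spike-in scaling. Ap1g1 and Vps35 fell at GV, by 0.67 and 0.56 on the log2 scale. Of 14 TFEB family and nutrient-sensing genes, 1 rose and 4 fell at the growing stage and 10 fell at GV. Omitting the spike-in factors, 1 rose and 1 fell at the growing stage and 1 fell at GV. Rptor rose in growing oocytes, from 1.27 to 2.28 FPKM (limma adjusted p = 0.00856), while Tfec, a member of the TFEB family, fell from 0.976 to 0.150 FPKM in growing oocytes, where Rragc and Flcn fell too. At GV Rraga, Mtor and Tfec fell, by 0.73, 0.68 and 0.63 on the log2 scale.

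Among 8 mannosidase and EDEM genes of the Golgi, the endoplasmic reticulum and the cytosol, 2 fell at each stage, and 1 did so without the spike-in scaling. Man1a, a Golgi alpha-mannosidase gene, fell from 3.80 to 0.948 FPKM in growing oocytes (log2 -1.35, limma adjusted p = 0.00135), and Edem3, of the endoplasmic reticulum, from 2.79 to 0.607 FPKM at GV (-1.24, adjusted p = 7.11e-05). Man1c1 fell at both stages, from 1.31 to 0.484 and from 1.49 to 0.741 FPKM.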

How the data were processed

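The deposited table gives FPKM per gene for 12 libraries of 10 mouse oocytes. The authors prepared Smart-seq2 libraries with ERCC spike-ins, aligned 50 bp of each read against mm9 (TopHat2 2.1.1), used uniquely placed reads for FPKM (Cufflinks 2.2.1, UCSC gene models) and scaled it by the spike-ins. Recovered factors show each library scaled to the WT growing library of the same number (WT GV 0.836 and 0.697, null GV 0.533 and 0.583, WT MII 0.225 and 0.228, null MII 0.283 and 0.252). The table holds no counts, so the counting error of a value is unknown, and the read totals that the study lists per library were not used here. Between 30.9% and 38.6% of genes are listed at 0 in a library.

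Groups followed the labels. Genes of at least 1 FPKM in at least 1 library (11502 of 23230) were tested with limma 3.58.1 (R 4.3.3) on log2(FPKM + 1). All 12 libraries entered 1 model of group means, with a mean-variance trend and Benjamini-Hochberg adjustment (call: adjusted p under 0.05), so that all groups share 1 estimate of the spread. The fit was also run on simulated data with independent noise for each gene and library. Those data hold no shift common to a library, so they cannot show how errors of the spike-in factors act. The pseudocount understates changes of low genes. MII genotypes were compared by a 3-fold rule with a floor of 1 FPKM and no test, and Manba was not counted in comparisons of MII with GV. The MII libraries entered every other test through the shared spread. Alternatives were no ERCC scaling, median scaling, a pseudocount or floor of 0.1 FPKM, a minimum mean of 5 FPKM, no filter, a replicate block, the compared libraries alone, no trend and each library left out.

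The genes, lists and rules were chosen with earlier results of these data known. Named genes are Manba and the targeted genes; members called between genotypes (6 per comparison by size with every library, the rest by means); members over 3-fold apart at MII; the 5 highest in WT GV oocytes; the 4 largest changes per direction in WT growth and WT maturation; and up to 3 genes per direction in each further list. Other genes named were chosen after their values were seen. Positions are from GENCODE (mm9), promoters from RefSeq (GRCm38.p6).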

Additional observations from a re-analysis of the deposited data

Results flagged for a closer look

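The genotype effect differed between the growing and GV stages for 5 lysosomal genes by limma's interaction test with Benjamini-Hochberg adjustment. The GV effect minus the growing effect was -2.30 on the log2 scale for Manba (adjusted p = 0.00814), -1.20 for Ctsb (0.0190), -0.68 for Ids (0.0392), 0.72 for Ctsl (0.0320) and 0.81 for Arsb (0.0494). With 2 libraries a group, Manba kept its call without each library in turn and the other 4 did not.

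For 12 genes both null libraries lay on one side of both WT libraries at the growing or GV stage and on the opposite side at MII, and this difference was not tested. That is 41.4% of the 29 genes, and the same order was seen in 27.7% of all 11502 genes. The 12 were Lamp1, Lamp2, Ctsa, Ctsb, Ctsh, Ctsl, Idua, Man2b1, Naglu, Gaa, Galc and Fuca1, all with null above WT at MII. Both shares were read from spike-in-scaled values only. Which genes switch depends on that scaling, and the switch was not counted under another one.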

How the results depend on the processing

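The counts behind each value are unknown and each group holds 2 libraries, which limits what can be said of genes near 1 FPKM. The spike-in scaling moved the counts most, and the cause was not tested. Without it the higher and lower members numbered 3 and 3 at the growing stage, 2 and 2 at GV, 0 and 2 for the difference between these stages, 1 and 1 in WT growth, 3 and 15 from WT GV to MII and 4 and 4 from null GV to MII. With each library scaled to its median they were 2 and 4, 4 and 2, 0 and 1, 0 and 1, 9 and 11, and 14 and 4. The further lists had 8 higher and 7 lower genes at the growing stage and 5 and 7 at GV without the scaling. A minimum mean of 5 FPKM left 11 members, or 10 where Manba was not counted, among 5966 genes. The counts, with those of all genes in brackets, were 1 and 3 at the growing stage (313 and 1369) and 0 and 4 at GV (118 and 2494). They were 0 higher for the difference (69), 8 lower in WT growth (1741), 10 lower in WT maturation (5821) and 6 lower in null maturation (4562). Without a filter all 38 members were tested among 23230 genes. There 2 were higher at GV (366), 0 higher and 1 lower for the difference (268 and 1033), and 6 lower in WT growth (2364). The next counts are of 29 members, with those of all 11502 genes in brackets. With the compared libraries alone 4 were lower at the growing stage (2256) and 0 higher at GV (214). For the difference 0 were higher and 1 lower (110 and 411), and 9 were lower in WT growth (1952). A pseudocount of 0.1 gave 0 higher for the difference (176) and 9 lower in WT growth (2167). No trend gave 1 higher for the difference (268), and a floor of 0.1 FPKM gave 10 members over 3-fold higher at MII.

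The libraries share replicate numbers, but the deviations of same-numbered libraries correlated between -0.117 and 0.163, so the number was not taken as a pairing. The number does set the spike-in reference. A correlation across genes cannot show a shift common to all genes, so that it leaves a shared scale of same-numbered libraries undecided. With the replicate block 1 gene was higher in the difference between stages, and the other member counts stayed within 1.5 times (2 and 7, 1 and 10, 3 lower, 0 and 13, 0 and 26, and 0 and 17). Leaving out 1 library gave 1 to 2 higher and 5 to 7 lower at the growing stage, 1 to 2 and 6 to 12 at GV, 0 to 2 and 1 to 4 for the difference, 0 and 5 to 15 in WT growth, 0 and 25 to 27 in WT maturation, 0 and 15 to 18 in null maturation, and 6 and 1 at MII.

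Directions reversed with scaling alone. With median scaling Npc1 at GV was 0.079, and from WT GV to MII the values were Arsb 1.35, Ctsd 0.70, Galc 0.33, Gla 0.58, Ids 0.96, Lamp2 0.52, Mcoln1 1.55, Naglu 0.10, Npc1 1.54, Psap 0.91 and Tpp1 1.41. From null GV to MII they were Ctsb 0.20, Ctsh 0.59, Gaa 0.046, Galc 0.30, Gla 0.29, Glb1 0.83, Lamp1 0.41, Lamp2 0.88, Npc1 1.04, Npc2 0.97, Smpd1 0.55 and Tpp1 0.31. Without the ERCC scaling the WT changes were Arsb 0.54, Ids 0.28, Mcoln1 0.65, Npc1 0.63, Psap 0.16 and Tpp1 0.70, and the null changes Glb1 0.23, Lamp2 0.30, Npc1 0.38 and Npc2 0.30, all on the log2 scale.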
